A study of Homo sapiens with 14 samples.

Results

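A set of 10 genes of Notch signalling was followed through the differentiation and expansion of human pancreatic progenitors: the receptors NOTCH1, NOTCH2 and NOTCH3, the ligands DLL1, DLL4, JAG1 and JAG2, and the target genes HES1, HEY1 and HEYL. The 10 genes were taken by name from the 60624 gene identifiers listed in each library, with earlier results of these data known, so counts over them are no independent evidence of a direction. All 10 were found by their Ensembl identifiers. The RNA-seq data comprised 14 libraries in 9 groups, all from MEL1, a human embryonic stem cell line that carries a GFP reporter in the insulin gene. The labels number 3 batches without saying what a batch was. Batch 1 held 1 library each of undifferentiated cells (hPSC), definitive endoderm (DE), stepwise differentiated pancreatic progenitors (PP2) and the β-like cells differentiated without expansion (SC-β). Batch 2 held 2 libraries each of expandable pancreatic progenitors at passage 9 (ePP-P9), at passage 21 (ePP-P21) and of the β-like cells obtained from them (ePP-β). Batch 3 held 2 libraries each of pancreatic progenitors that had received the solvent DMSO or 1 μM I-BET151 for 7 days. I-BET151 blocks the bromodomains of the BET proteins, readers of acetylated histones. Per the methods of the study, the ePPs were kept on feeder cells in medium that held I-BET151, EGF, bFGF and a TGFβ receptor inhibitor. The ePP groups therefore shared I-BET151 exposure with the I-BET151 group, whereas PP2 cells had never received it. For the chemical screen of the study, progenitors were passaged and treated in the same medium without I-BET151. Where this held for batch 3, the DMSO and I-BET151 groups also shared medium and passaging with the ePPs, and not with PP2. A γ-secretase inhibitor, compound E, was part of the medium of 1 late step of the β cell protocol, but not of the last, and γ-secretase is the protease that releases the active fragment of Notch receptors. All groups came from 1 cell line, and neither the labels nor the methods state whether libraries of a group came from separate cultures, so p-values measure only the spread between these libraries, which may be technical.

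Notch signalling passes between touching cells. A ligand of the Delta-like (DLL) or Jagged (JAG) family on one cell binds a NOTCH receptor on its neighbour, the receptor is cut by ADAM proteases and then by γ-secretase, and its intracellular part joins the DNA-binding protein RBPJ to switch on HES and HEY genes. These encode repressors of the basic helix-loop-helix class. In the developing pancreas, Notch activity is known for holding progenitors undifferentiated and for restraining NEUROG3, the factor that starts endocrine differentiation.

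The letters bound by RBPJ were looked for in the promoters, since the target genes are defined by that factor. RefSeq promoter windows (build GRCh38.p14) were matched for 8 of the 10 genes, and DLL1 and HEY1 were not among them. The 250 bases before each start were searched on both strands for GTGGGAA, a core that RBPJ binds, and for CACNAG, the N box bound by HES proteins. The opposite-strand letters of one motif can share the bases CAC or GTG with the other, which was not the case in the windows shown. Of 35116 promoters in the table, 5.43% held the RBPJ core and 32% held an N box. Of the 8 windows, those of HES1 and HEYL held the RBPJ core, and they are shown for that reason, with the core in capitals. Both are written 5′ to 3′ along the gene's strand. The HES1 window lies at chr3:194135898-194136147 on the plus strand, and the HEYL window at chr1:39639644-39639893 on the minus strand.
HES1: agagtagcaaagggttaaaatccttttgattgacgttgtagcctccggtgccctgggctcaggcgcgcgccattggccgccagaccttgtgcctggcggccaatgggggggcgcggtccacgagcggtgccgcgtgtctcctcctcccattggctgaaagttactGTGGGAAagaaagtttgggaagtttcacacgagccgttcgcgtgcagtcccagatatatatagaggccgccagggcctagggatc
HEYL: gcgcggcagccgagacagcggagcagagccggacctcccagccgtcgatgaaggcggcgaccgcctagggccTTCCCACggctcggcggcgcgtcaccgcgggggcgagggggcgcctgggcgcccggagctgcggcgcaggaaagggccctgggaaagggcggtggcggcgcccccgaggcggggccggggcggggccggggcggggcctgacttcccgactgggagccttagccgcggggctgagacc
In HES1 the core began 85 bases before the start on the gene's own strand. In HEYL it began 178 bases before the start and read on the opposite strand, as TTCCCAC. The HES1 window also held 3 N boxes, at 165, 132 and 58 bases before the start, and the NOTCH3 window held 1, at 211 bases. The windows of NOTCH1, NOTCH2, DLL4, JAG1 and JAG2 held neither motif. A match of letters is a description of the window and was not tested as a binding site.

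Expression is given in TPM, a share of each library's transcripts corrected for transcript length, so levels of different genes can be set side by side. Library sums of TPM ran from 908685 to 985497, and 14982 to 17578 genes reached 1 TPM. The number of reads is not recorded in TPM, so the depth is unknown and no counting error can be given. Differences are on the log2(TPM + 1) scale, which understates changes of genes near or under 1 TPM. In bulk RNA a lower value can mean fewer cells of a kind or less RNA per cell, which cannot be told apart. The labelled cell types were checked by their markers. POU5F1 was at 3401 TPM in hPSC and at 389 TPM in DE, SOX17 at 1140 TPM in DE, and PDX1 between 53.8 and 251 TPM in the other 12 libraries. Other markers followed the labels less closely. NKX6-1, a further progenitor marker, was at 23.5 TPM in PP2 and between 51.5 and 446 TPM in the other pancreatic libraries. CXCR4, a further DE marker, was at 105 TPM in DE but at 147 and 226 TPM in ePP-β. INS was at 20657 TPM in SC-β and at 10916 and 17374 TPM in ePP-β. Markers of other cell types also differed between groups. A list of 8 mesenchymal genes summed to 1510 TPM in PP2 and 2688 TPM in SC-β, with 8 of 8 at 1 TPM or more in each, but to between 37.7 and 190 TPM in the 10 libraries of batches 2 and 3. The same list summed to 563 TPM in hPSC, with 4 of 8 at 1 TPM or more, and to 51.3 TPM in DE. A list of 8 endothelial genes summed to 78.0 TPM in PP2, with 8 of 8 at 1 TPM or more, and to 1.82 TPM or less in the 4 ePP libraries, with 0 of 8 at that level.

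**Figure D1:**
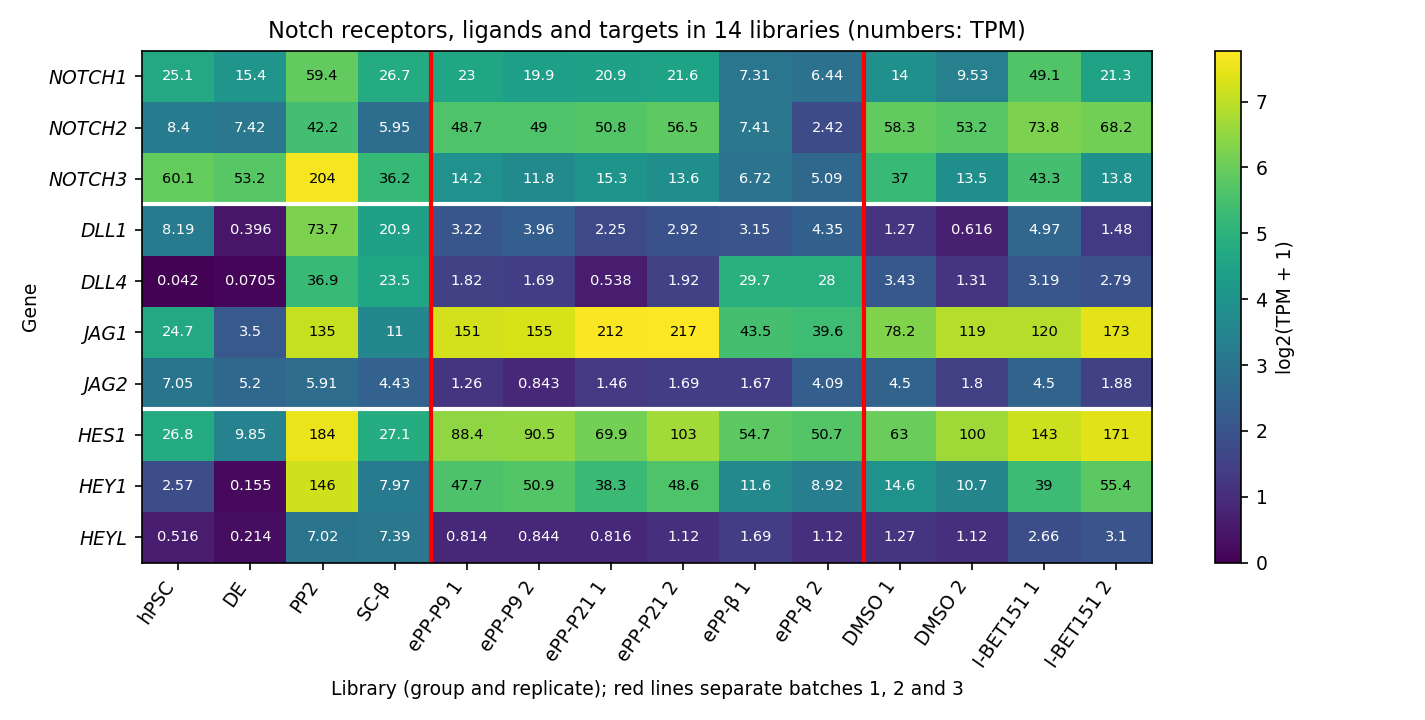
TPM of the 10 Notch genes (rows: receptors, ligands, targets) in each of the 14 libraries (columns), with the colour showing log2(TPM + 1) and red lines separating the 3 batches. PP2 held the highest value of NOTCH1, NOTCH3, DLL1, DLL4, HES1 and HEY1, ePP-P21 that of JAG1, and I-BET151 that of NOTCH2.

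The receptors were considered first, through all 9 groups. NOTCH3 (ENSG00000074181, chromosome 19, 15159038 to 15200995, minus strand) was at 60.1 TPM in hPSC, 53.2 TPM in DE, 204 TPM in PP2 and 36.2 TPM in SC-β. In batch 2, ePP-P9 had 14.2 and 11.8 TPM, ePP-P21 15.3 and 13.6 TPM, and ePP-β 6.72 and 5.09 TPM. The DMSO libraries held 37.0 and 13.5 TPM, the I-BET151 libraries 43.3 and 13.8 TPM. NOTCH3 was thus the leading receptor of the batch 1 cells, with 66.7% of the receptor TPM in PP2, but held 14.7% to 17.6% in the ePP libraries. Its values in replicate 1 and replicate 2 of batch 3 differed more than DMSO and I-BET151 did. NOTCH3 is well known from mural cells of blood vessels. PDGFRB, a marker of such cells, was at 3.30 TPM in hPSC, 0.277 TPM in DE, 22.2 TPM in PP2 and 43.5 TPM in SC-β. In batches 2 and 3 it was between 1.42 TPM (ePP-β) and 14.3 TPM (I-BET151). The part of other cell types in the NOTCH3 level was not tested.

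NOTCH2 (ENSG00000134250, chromosome 1, 119911553 to 120100779, minus strand) was at 8.40 TPM in hPSC, 7.42 TPM in DE, 42.2 TPM in PP2 and 5.95 TPM in SC-β. The ePP-P9 libraries were at 48.7 and 49.0 TPM, those of ePP-P21 at 50.8 and 56.5 TPM and those of ePP-β at 7.41 and 2.42 TPM. Batch 3 gave 58.3 and 53.2 TPM under DMSO, 73.8 and 68.2 TPM under I-BET151. NOTCH2 was the leading receptor in every ePP, DMSO and I-BET151 library, at 56.7% to 61.6% of the receptor TPM in ePPs, and every pancreatic progenitor library was above 40 TPM. The NOTCH2NL genes (NOTCH2NLA, NOTCH2NLB, NOTCH2NLC and NOTCH2NLR) are partial, nearly identical copies of NOTCH2, and how their shared reads were split is not stated, so the NOTCH2 level is uncertain. The 4 copies summed to between 21.4 and 25.1 TPM in the ePP libraries, to 3.29 and 3.39 TPM in ePP-β, and to between 33.5 and 41.5 TPM in batch 3.

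NOTCH1 (ENSG00000148400, chromosome 9, 136494433 to 136546048, minus strand) varied less between stages. It was at 25.1 TPM in hPSC, 15.4 TPM in DE, 59.4 TPM in PP2 and 26.7 TPM in SC-β. Expanded progenitors had 23.0 and 19.9 TPM at passage 9 and 20.9 and 21.6 TPM at passage 21, and ePP-β had 7.31 and 6.44 TPM. With DMSO the values were 13.98 and 9.53 TPM, with I-BET151 49.1 and 21.3 TPM. The I-BET151 libraries were both above both DMSO libraries, and replicate 1 with I-BET151 held the highest value outside PP2. Summed over the 3 receptors, PP2 had 305 TPM, the ePP libraries between 80.8 and 91.6 TPM and the ePP-β libraries 21.44 and 13.96 TPM.

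Among the ligands, JAG1 reached the highest levels. JAG1 (ENSG00000101384, chromosome 20, 10637684 to 10673999, minus strand) was at 24.7 TPM in hPSC, 3.50 TPM in DE, 135 TPM in PP2 and 11.0 TPM in SC-β. In batch 2, ePP-P9 had 151 and 155 TPM, ePP-P21 212 and 217 TPM, and ePP-β 43.5 and 39.6 TPM. For DMSO 78.2 and 119 TPM were measured, for I-BET151 119.6 and 173 TPM. All progenitor libraries exceeded 78 TPM, and JAG1 made up 96.0% to 98.0% of the TPM of the 4 ligands in the ePP libraries, against 53.6% in PP2.

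The Delta-like ligands showed a different order. DLL4 (ENSG00000128917, chromosome 15, 40929340 to 40939073, plus strand) was at 0.042 TPM in hPSC, 0.0705 TPM in DE, 36.9 TPM in PP2 and 23.5 TPM in SC-β. The ePP-P9 libraries were at 1.82 and 1.69 TPM, those of ePP-P21 at 0.538 and 1.92 TPM and those of ePP-β at 29.7 and 28.0 TPM. The DMSO libraries held 3.43 and 1.31 TPM, the I-BET151 libraries 3.19 and 2.79 TPM. DLL4 was thus above 20 TPM in PP2 and in both kinds of β-like cells and under 4 TPM everywhere else. DLL4 is best known from endothelial cells. Of the 8 endothelial markers, 8 reached 1 TPM in PP2, 2 in SC-β (CLDN5 at 10.9 TPM and TEK at 2.17 TPM) and 1 in ePP-β (CLDN5 at 17.0 and 5.82 TPM). The other 7 were under 0.08 TPM in both ePP-β libraries. The part of endothelial cells in the DLL4 level was not tested.

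DLL1 (ENSG00000198719, chromosome 6, 170282206 to 170306565, minus strand) was at 8.19 TPM in hPSC, 0.396 TPM in DE, 73.7 TPM in PP2 and 20.9 TPM in SC-β. Expanded progenitors had 3.22 and 3.96 TPM at passage 9 and 2.25 and 2.92 TPM at passage 21, and ePP-β had 3.15 and 4.35 TPM. Batch 3 gave 1.27 and 0.616 TPM under DMSO, 4.97 and 1.48 TPM under I-BET151. The batch 1 progenitors and β-like cells held the highest levels, and the ePP-β range overlapped that of ePP-P9. DLL1 overlaps FAM120B, a gene on the opposite strand that was between 7.16 and 23.1 TPM. Since the use of strand in the counting was not stated, reads of the overlap cannot be assigned with certainty. JAG2 (ENSG00000184916, chromosome 14, 105140982 to 105168824, minus strand) stayed between 0.843 and 7.05 TPM in all 14 libraries, highest in hPSC. It shares its strand with an overlapping long non-coding gene at 2.55 to 10.7 TPM, so its level is uncertain too.

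**Figure D2:**
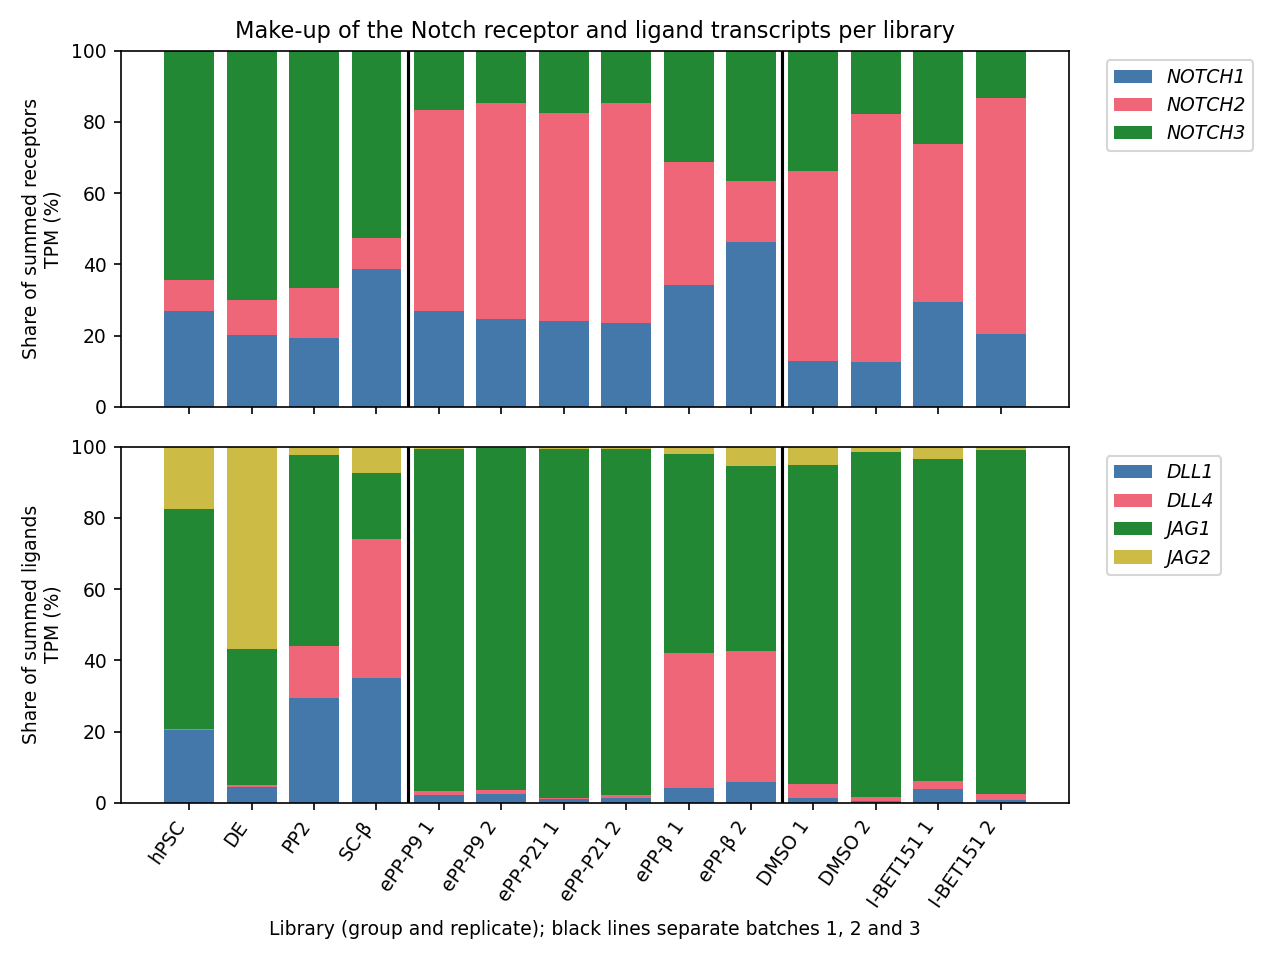
Share of each receptor in the summed TPM of the 3 receptors (top) and of each ligand in the summed TPM of the 4 ligands (bottom), in percent, for each of the 14 libraries; vertical lines separate the batches. NOTCH3 made up 66.7% of the receptor TPM in PP2 and NOTCH2 56.7% to 61.6% in the ePP libraries, where JAG1 made up 96.0% to 98.0% of the ligand TPM.

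The targets HES1 and HEY1 had similar profiles. HES1 (ENSG00000114315, chromosome 3, 194136148 to 194138732, plus strand) was at 26.8 TPM in hPSC, 9.85 TPM in DE, 184 TPM in PP2 and 27.1 TPM in SC-β. In batch 2, ePP-P9 had 88.4 and 90.5 TPM, ePP-P21 69.9 and 103 TPM, and ePP-β 54.7 and 50.7 TPM. With DMSO the values were 63.0 and 100.2 TPM, with I-BET151 143 and 171 TPM. HES1 was highest in PP2 and I-BET151 and lowest in DE, and the ePP and DMSO ranges overlapped.

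HEY1 (ENSG00000164683, chromosome 8, 79762371 to 79767857, minus strand) spanned the widest range of the 3 targets. It was at 2.57 TPM in hPSC, 0.155 TPM in DE, 146 TPM in PP2 and 7.97 TPM in SC-β. The ePP-P9 libraries were at 47.7 and 50.9 TPM, those of ePP-P21 at 38.3 and 48.6 TPM and those of ePP-β at 11.6 and 8.92 TPM. For DMSO 14.6 and 10.7 TPM were measured, for I-BET151 39.0 and 55.4 TPM. The I-BET151 libraries of batch 3 lay in the range of the ePP libraries of batch 2 or just above it, and the DMSO range overlapped that of ePP-β. These groups carry different batch numbers, and their difference cannot be told apart from a batch effect and was left untested.

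HEYL (ENSG00000163909, chromosome 1, 39623435 to 39639643, minus strand), a HEY relative known from vascular smooth muscle, was the weakest target. It was at 0.516 TPM in hPSC, 0.214 TPM in DE, 7.02 TPM in PP2 and 7.39 TPM in SC-β. The 6 libraries of batch 2 lay between 0.814 and 1.69 TPM. The DMSO libraries held 1.27 and 1.12 TPM, the I-BET151 libraries 2.66 and 3.10 TPM. The 2 libraries with the highest HEYL were also those with the highest sums of mesenchymal markers. The hPSC library came next in that sum, at 563 TPM, but had HEYL at 0.516 TPM. The part of mesenchymal cells was not tested. In batch 3 the mesenchymal sum was 83.2 to 190 TPM in DMSO and 37.7 to 79.9 TPM in I-BET151, and its part in the HEYL values was not tested.

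Ordered by their means, several neighbouring groups had overlapping libraries: DMSO and ePP-P21 for NOTCH2, ePP-P9 and ePP-P21 for NOTCH1, DMSO, I-BET151, ePP-P9 and ePP-P21 for DLL4, ePP-P9 and I-BET151 for JAG1, ePP-P9, ePP-P21 and DMSO for HES1, and ePP-P9, I-BET151 and ePP-P21 for HEY1.

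Across the 9 group means of log2(TPM + 1), HES1 and HEY1 correlated at r = 0.952, and JAG1 correlated with HES1 at r = 0.931 and with HEY1 at r = 0.886. NOTCH2 correlated with JAG1 at r = 0.834 and with HES1 at r = 0.787, whereas for NOTCH3 and HES1 r was -0.023. DLL4 and HEYL correlated at r = 0.817. These values describe 9 points that share 3 batches and 1 cell line and are given with no test. By the same measure, the genes most like each member among 12498 compared were MEN1 for NOTCH1 (r = 0.985), CHST3 for NOTCH2 (r = 0.974), PCGF2 for NOTCH3 (r = 0.988), CELSR2 for DLL1 (r = 0.969), BAALC for DLL4 (r = 0.978), PLD1 for JAG1 (r = 0.979), GNB3 for JAG2 (r = 0.983), PLAGL2 for HES1 (r = 0.968), LMTK2 for HEY1 (r = 0.983) and KRT13 for HEYL (r = 0.970). LMTK2 was also second for HES1 (r = 0.959).

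The single libraries of batch 1 show how the genes differed along stepwise differentiation, with no replicate check. Genes that reached 1 TPM in either stage of a step were counted, and a gene was taken as higher or lower when it differed by more than 1 log2 unit. From hPSC to DE, 8 members could be counted, 0 were higher (10.8% of all 17807 genes were) and 4 were lower (16.1% of all genes). The 4 were DLL1 at -2.72, JAG1 at -2.52, HEY1 at -1.63 and HES1 at -1.36 log2 units. The median of the members was -1.01 against -0.04 for all genes. From DE to PP2, 9 of 10 members were higher, against 27.2% of 18578 genes, and 0 were lower, against 9.83%. The differences ran from 1.88 for NOTCH1 to 6.99 for HEY1 log2 units, JAG2 at 0.16 was the exception, and the median was 3.41 against 0.38 for all genes. From PP2 to SC-β, 0 of 10 members were higher (12.7% of 18894 genes) and 7 were lower (22.1%), with a median of -2.11 against -0.37. The values of DLL4, JAG2 and HEYL stayed within 1 log2 unit in that step. Of the 55 other pathway genes listed further below, 52 were counted in each step, with 2 higher and 13 lower in DE, 31 higher and 3 lower in PP2, and 5 higher and 18 lower in SC-β. The mesenchymal sum was 51.3 TPM in DE, 1510 TPM in PP2 and 2688 TPM in SC-β, and the endothelial sum 9.36, 78.0 and 13.2 TPM. Their part in these steps was not tested.

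The DMSO and I-BET151 libraries addressed whether the BET inhibitor changes Notch gene expression in pancreatic progenitors. In the same-numbered pairs of libraries, NOTCH1 was 3.51 and 2.23 times and HEY1 2.67 and 5.20 times as high in TPM with I-BET151 as with DMSO. HES1 was 2.27 and 1.70 times, DLL1 3.92 and 2.41 times, HEYL 2.096 and 2.77 times and JAG1 1.53 and 1.46 times as high. NOTCH2 was 1.27 and 1.28 times as high, NOTCH3 1.17 and 1.02 times and JAG2 1.00 and 1.04 times, while DLL4 was 0.931 times in the first pair and 2.13 times in the second. On the log2(TPM + 1) scale, 9 of 10 members were higher in both pairs, against 48.6% of all tested genes. NOTCH1 and HEY1 exceeded 1 log2 unit in both pairs, 2 of 10 members against 2.87% of genes. For 7 of 10 members both I-BET151 libraries lay above both DMSO libraries, against 28.7% of genes. The 3 whose groups overlapped were NOTCH3, DLL4 and JAG2.

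In the test between the groups, 0 of 10 members were called at an adjusted p under 0.05 and a log2 fold change beyond 1 (limma, Benjamini-Hochberg over 16687 genes). Few genes passed at all, 0.21% of those tested. At an unadjusted p under 0.05 stood 4 members, NOTCH1, HES1, HEY1 and HEYL, against 15.2% of all genes. The median log2 fold change of the members was 0.70 and that of all genes 0.16. HEY1 had a log2 fold change of 1.82 (SE 0.36, limma adjusted p = 0.116) and NOTCH1 of 1.41 (SE 0.50, adjusted p = 0.283). HES1 had 0.97 (SE 0.37, adjusted p = 0.313) and HEYL 0.82 (SE 0.29, adjusted p = 0.281). Of the ligands, DLL1 had 1.01 (SE 0.51, adjusted p = 0.426) and JAG1 0.57 (SE 0.38, adjusted p = 0.542). NOTCH2 at 0.34, DLL4 at 0.32, NOTCH3 at 0.13 and JAG2 at 0.02 had adjusted p between 0.641 and 0.99. The interval of NOTCH3 reached from -1.72 to 1.97 and that of JAG2 from -1.29 to 1.33, so these data bound neither change closely. When the spread was estimated from all 10 replicated libraries, 2 of 10 members were called, against 10.3% of all genes: HEY1 with an adjusted p of 0.00361 and NOTCH1 with 0.0379 (limma). These fits took no account of the replicate number, so differences between replicates 1 and 2 that both groups shared counted as spread. With a term for the replicate number, 2 of 10 members, HEY1 and NOTCH1, were called, against 13.7% of all genes. The SE of NOTCH1 was then 0.23. What the number marks is not stated in the labels. Leaving out a library leaves 1 in its group, which is then assumed to vary like the other group. NOTCH1 then ranged from 0.83 without I-BET151 replicate 1 (limma adjusted p = 0.563) to 2.00 without I-BET151 replicate 2 (limma adjusted p = 0.0232). HEY1 ranged from 1.57 without I-BET151 replicate 2 (limma adjusted p = 0.0838) to 2.07 without I-BET151 replicate 1 (limma adjusted p = 0.0245). Neither was called without DMSO replicate 1 or without DMSO replicate 2. DLL1 ranged from 0.37 without I-BET151 replicate 1 to 1.64 without I-BET151 replicate 2, JAG1 from 0.27 without DMSO replicate 1 to 0.87 without DMSO replicate 2, and HES1 from 0.64 without DMSO replicate 1 to 1.30 without DMSO replicate 2, none of them called. Cell type markers differed as well: the endothelial sum was 5.78 to 8.89 TPM in DMSO and 1.20 to 3.63 TPM in I-BET151, and PDX1 had 110 and 74.4 TPM with DMSO against 198 and 134 TPM with I-BET151. Their part in the Notch values was not tested.

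**Figure D3:**
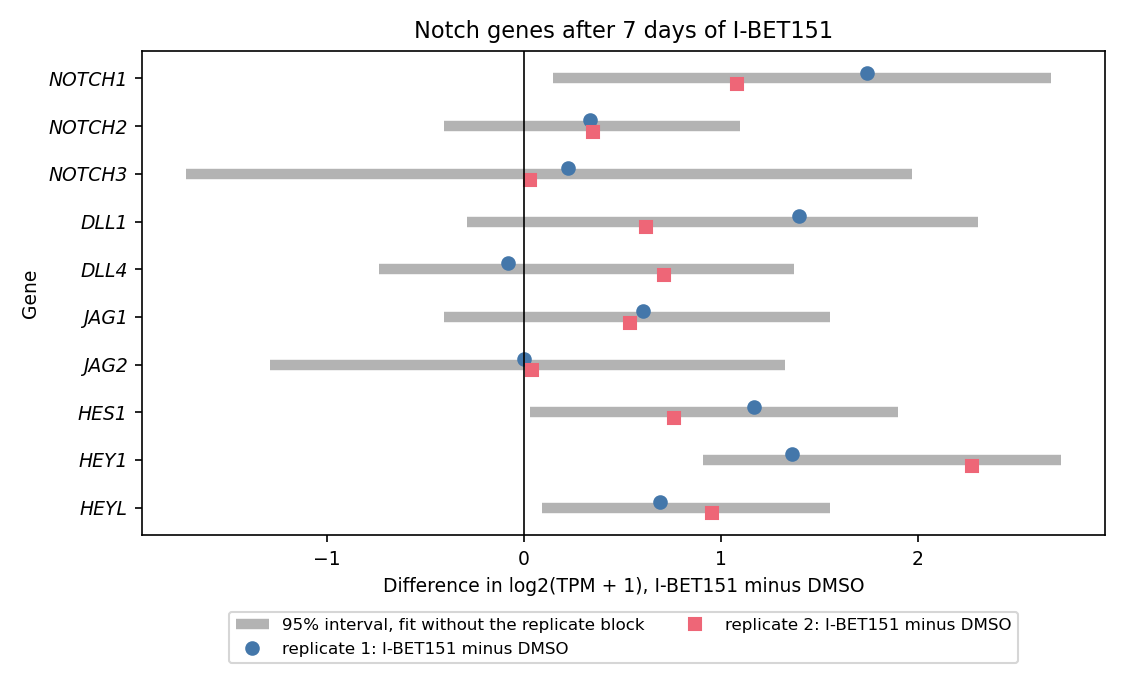
Difference in log2(TPM + 1), I-BET151 minus DMSO, of each Notch gene in replicate 1 (circles) and replicate 2 (squares), with the 95% interval of the group comparison without the replicate block (grey bars). The points of 9 of 10 genes lie right of 0 in both replicates, and the intervals of NOTCH1, HES1, HEY1 and HEYL do not reach 0.

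Of the other 55 genes of the pathway, a list of ligands, glycosyltransferases, proteases, nuclear cofactors, inhibitors and further targets, 51 were tested. With I-BET151, 0 of them were called higher (0.00599% of all genes were) and 1 was called lower (0.204% of all genes). The called gene was DLK1, a Delta-like membrane protein that lacks the receptor-activating domain and can dampen Notch signalling. DLK1 had 995 and 902 TPM with DMSO against 82.4 and 93.9 TPM with I-BET151 (log2 fold change -3.41, SE 0.30, limma adjusted p = 0.048). The call was lost with a pseudocount of 0.1 (limma adjusted p = 0.0575) and with no filter (limma adjusted p = 0.234), with log2 fold changes of -3.43 and -3.41, and was kept in the other 9 alternatives. DLK1 was at 7.70 to 13.3 TPM in the ePP libraries, which had also received I-BET151, and at 499 TPM in PP2. These libraries carry other batch numbers, so their difference from batch 3 cannot be told apart from a batch effect. The median log2 fold change of the list was 0.25 and that of all genes 0.16. NEUROG3, NEUROD1 and PTF1A, genes that HES proteins are known to repress, stayed under 1 TPM in all DMSO and I-BET151 libraries and were not tested.

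The ePP libraries addressed whether the cells keep their profile over passages. Of the 9 members tested, 0 were called between ePP-P21 and ePP-P9, against 1.13% of 15822 genes, and at an adjusted p under 0.05 alone there was 1, JAG1, against 1.95%. HEYL was not tested because it stayed under the filter. JAG1 was 153 ± 2.68 TPM (SD, n = 2) at passage 9 and 215 ± 3.81 TPM (SD, n = 2) at passage 21, and the libraries did not overlap. Its log2 fold change was 0.48 (SE 0.07, 95% interval 0.31 to 0.66, limma adjusted p = 0.0451), and over the alternatives the limma adjusted p ran from 0.0328 to 0.645. HES1 was 89.5 ± 1.48 TPM at passage 9 and 86.4 ± 23.3 TPM at passage 21 (SD, n = 2 each), a log2 difference of -0.08 whose interval ran from -0.53 to 0.38. HEY1 was 49.3 ± 2.22 and 43.4 ± 7.25 TPM, with -0.19 and an interval from -0.53 to 0.15. For NOTCH1 the interval ran from -0.33 to 0.31 and for NOTCH2 from -0.11 to 0.37. The intervals of DLL1 (-0.92 to 0.21) and DLL4 (-1.27 to 0.52) were wider, and the DLL4 values of the 2 ePP-P21 libraries differed by more than the group means did. The median over the 9 members was -0.01 and that over all genes 0.13. Of the pathway list, 47 genes were tested and 1 was called: RFNG, a glycosyltransferase of the fringe family, which modifies Notch receptors, went from 24.6 and 26.6 TPM to 59.9 and 48.3 TPM (log2 fold change 1.04, SE 0.14, limma adjusted p = 0.0379). The RFNG call was lost in 8 of 11 alternatives, among them median centring (0.84, limma adjusted p = 0.0815) and the fit with all 10 replicated libraries (limma adjusted p = 0.519).

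The ePP-β libraries were compared with the 4 ePP libraries of the same batch, to describe the Notch genes as expanded progenitors gave rise to β-like cells. The ePP SD given for this comparison spans 2 libraries at each of 2 passages, whereas the fit took the passages as 2 groups. Of 10 members, 1 rose (17.9% of 18076 genes did) and 5 fell (9.86% of genes did), 6 called in all against 27.8%. All 3 receptors fell. NOTCH2 was at 51.3 ± 3.59 TPM in ePP (SD, n = 4) and 4.92 ± 3.53 TPM in ePP-β (SD, n = 2), a log2 fold change of -3.28 (SE 0.34, limma adjusted p = 0.000461). NOTCH1 went from 21.4 ± 1.31 to 6.88 ± 0.614 TPM, a change of -1.51 (SE 0.12, limma adjusted p = 0.000161). NOTCH3 went from 13.7 ± 1.46 to 5.91 ± 1.15 TPM, a change of -1.10 (SE 0.16, limma adjusted p = 0.00186). The groups did not overlap for any receptor. The call on NOTCH3 was lost when the spread came from all 10 replicated libraries (limma adjusted p = 0.116) and, because the change shrank to -0.93, without ePP-β replicate 2.

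The ligands moved in opposite directions. JAG1 fell, with 184 ± 35.6 TPM in ePP (SD, n = 4) against 41.5 ± 2.71 TPM in ePP-β (SD, n = 2), a log2 fold change of -2.101 (SE 0.07, limma adjusted p = 8.87e-06). That ePP SD spans passage means of 153 TPM (ePP-P9) and 215 TPM (ePP-P21). DLL4 rose from 1.49 ± 0.642 to 28.8 ± 1.16 TPM, a change of 3.63 (SE 0.27, limma adjusted p = 0.000135). JAG1 and DLL4 then made up 55.8% and 38.1% of the ligand TPM in ePP-β replicate 1 and 52.1% and 36.8% in replicate 2. DLL4 had made up 1.15% or less in the ePP libraries. DLL1 had a log2 fold change of 0.22 (interval -0.25 to 0.70, limma adjusted p = 0.366) and JAG2 of 0.68 (interval -0.02 to 1.39, limma adjusted p = 0.0861), neither called.

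Of the targets, HEY1 fell, with 46.4 ± 5.53 TPM in ePP (SD, n = 4) against 10.2 ± 1.86 TPM in ePP-β (SD, n = 2), a log2 fold change of -2.08 (SE 0.15, limma adjusted p = 0.000101). HES1 was at 87.9 ± 13.6 and 52.7 ± 2.82 TPM. Its log2 fold change of -0.72 (SE 0.15, limma adjusted p = 0.00901) did not reach the fold threshold, and all ePP libraries were above both ePP-β libraries. HEYL had 0.33 (SE 0.17, limma adjusted p = 0.143). At an adjusted p under 0.05 alone, 7 of 10 members passed, against 57.4% of all genes. The median log2 fold change of the members was -0.91 and that of all genes -0.03.

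**Figure D4:**
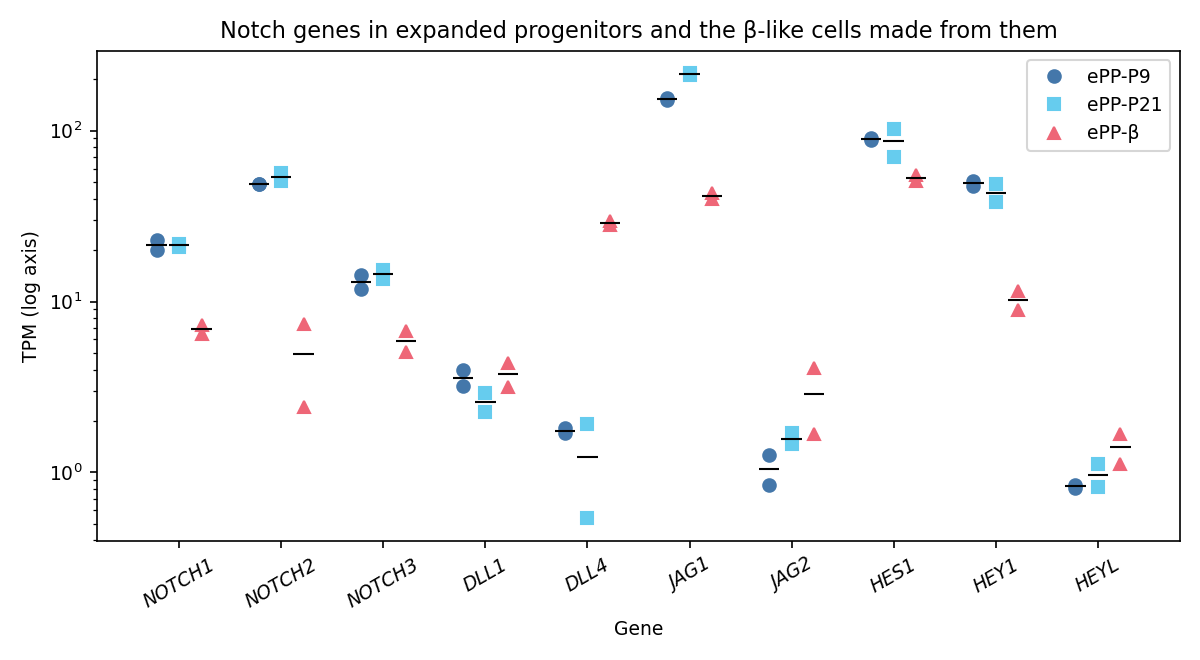
TPM (log axis) of each Notch gene in ePP-P9 (circles), ePP-P21 (squares) and ePP-β (triangles), 2 libraries each, with group means as short black lines. NOTCH1, NOTCH2, NOTCH3, JAG1 and HEY1 were lower in both ePP-β libraries than in all 4 ePP libraries, and DLL4 was higher, at 29.7 and 28.0 TPM against 1.92 TPM or less.

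Of the pathway list, 50 genes were tested in this comparison, 13 rose and 6 fell, against 17.9% and 9.86% of all genes, with a median of -0.12 against -0.03. The 4 largest rises were those of DLK1 (4.88), MFNG, a fringe glycosyltransferase (3.98), DTX3L, a deltex-family ubiquitin ligase (3.48), and DLL3, a ligand relative that does not activate receptors in neighbouring cells (2.51). DLK1 went from 7.70 to 13.3 TPM in ePPs to 332 and 326 TPM in ePP-β, and MFNG from 0.646 TPM or less to 16.1 and 20.0 TPM. The 4 largest falls were those of HES6 (-2.05), a HES-family member, LFNG, another fringe enzyme (-1.62), MIB2, a ubiquitin ligase for ligands (-1.49), and MAML1, a coactivator of the RBPJ complex (-1.29). The calls on HES6 and LFNG were lost when all 10 replicated libraries set the spread (limma adjusted p = 0.0894 and 0.147). LFNG went from 15.2 to 17.6 TPM in ePPs to 4.74 and 4.51 TPM in ePP-β. Of the genes known to be repressed by HES proteins, NEUROG3 and NEUROD1 rose. NEUROG3 went from 0.409 TPM or less to 5.65 and 5.51 TPM (2.33 log2 units, limma adjusted p = 8.23e-05), and NEUROD1 from 0.219 TPM or less to 334 and 317 TPM (8.23 log2 units, limma adjusted p = 2.59e-06). PTF1A was not tested and stayed at 0.500 TPM or less. In the single SC-β library of batch 1, NEUROG3 was at 25.2 TPM, NEUROD1 at 182 TPM and PTF1A at 61.0 TPM, with HES1 at 27.1 TPM and HEY1 at 7.97 TPM. The single PP2 library had NEUROG3 at 4.28 TPM, PTF1A at 21.05 TPM and NEUROD1 at 0.120 TPM. Its HES1 at 184 TPM and HEY1 at 146 TPM were the highest of all libraries. Whether HES1 or HEY1 levels bear on these genes was not tested.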

How the data were processed

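RNA-seq of 14 libraries was analysed. Per the methods of the study, the authors sequenced paired ends on an Illumina HiSeq, aligned reads to GRCh38 with HISAT2 (version 2.1.0), assembled transcripts with StringTie and summed transcripts per gene identifier; the deposited values are TPM with no further scaling. The annotation release and use of strand were not given in the sources used here. The authors used DESeq2 on counts, a test that does not apply to TPM, so limma 3.58.1 (R 4.3.3, lmFit and eBayes with trend, two-sided) was run here on log2(TPM + 1), with a filter of at least 1 TPM in at least 2 libraries of the fit. Called genes had a Benjamini-Hochberg adjusted p under 0.05 over all tested genes and a log2 fold change beyond 1. Groups come from the sample titles. Of 60624 identifiers, 60370 matched GENCODE release 44 (GRCh38). All 37 mitochondrial genes were listed at 0. The depth is unknown, so precision rests on 2 libraries per group. The code was tested on simulated data. Alternatives were other pseudocounts, filters, scalings, spread estimates, a replicate block and leaving out each library.

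The 10 members and the gene lists were chosen with earlier results of these data known. Of the pathway list, up to 4 called genes per direction and comparison with the largest change were named. Likeness is Pearson's r over the 9 group means of log2(TPM + 1). Promoter sequences are from RefSeq (GRCh38.p14). A result on 1 gene of the lists is not reported here.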

Additional observations from a re-analysis of the deposited data

How the results depend on the processing

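With I-BET151, 0 members were called in the comparison as reported, 2 (HEY1 and NOTCH1) when all 10 replicated libraries set the spread, and 0 to 1 when a library was left out. Replicate numbers are shared across groups, but the labels do not say what a number marks, and 2 pairs are too few to show what it marks. Replicates 2 and 1 differed in the same direction in DMSO and I-BET151 for 78.1% of 16687 genes. Between groups of batch 2 this share was 50.4% to 57.0%. The differences between replicates 2 and 1 correlated at r = 0.675 across genes between DMSO and I-BET151, at -0.00933 between ePP-P9 and ePP-P21, and at 0.0320 and 0.0439 between these and ePP-β. With the replicate block, 2 members were called with I-BET151, against 13.7% of all genes (2294): HEY1 (adjusted p = 0.0153) and NOTCH1 (limma adjusted p = 0.0195), with HES1 at 0.0242 under the fold threshold. Of the pathway list it called 4 higher and 5 lower, among the latter RBPJ (limma adjusted p = 0.00698) and DLK1 (0.00362). It changed no call on a member in the other comparisons, and the limma adjusted p of JAG1 between passages became 0.0588 and that of RFNG 0.057, which ended its call.

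All genes called with I-BET151 numbered 35 as reported, 0 with a pseudocount of 0.1 or with no filter (limma, 2462 and 4535 at an unadjusted p under 0.05), 120 with median centring, 138 with quantile normalization and 1719 with all 10 libraries; leaving out DMSO replicate 1 or 2 gave 107 or 268, and leaving out I-BET151 replicate 1 or 2 gave 667 or 1034. Between passages there were 178, and 0 with no filter (limma, 4677 at an unadjusted p under 0.05), median centring (4176) or without ePP-P21 replicate 1 (3664), 1 with all 10 libraries, 2 without ePP-P21 replicate 2, 13 with quantile normalization, 66 with the block, 309 at an adjusted p alone and 478 without ePP-P9 replicate 2. At an adjusted p alone 1 member (JAG1) was called between passages, and 0 to 0 when a library was left out. Between ePP-β and ePP, 5 to 7 members were called when a library was left out: NOTCH3 was lost without ePP-β replicate 2, and JAG2 was called without ePP-β replicate 1 (1.15, limma adjusted p = 0.0221). For all genes, 3237 higher and 1783 lower became 2924 and 2377 with median centring, 2592 and 2866 with quantile normalization, which moved the median from -0.03 to -0.19, and 1765 and 1701 or 1623 and 2001 without ePP-β replicate 1 or 2. An adjusted p alone gave 10381.

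No called change of a member turned direction. With I-BET151, the values of 3 uncalled members changed sign when a library was left out: NOTCH3 ran from -0.66 to 0.92 (-0.57 without DMSO replicate 2, -0.66 without I-BET151 replicate 1), DLL4 from -0.15 (without DMSO replicate 2) to 0.79, and JAG2 from -0.47 to 0.51 (-0.47 without DMSO replicate 2, -0.45 without I-BET151 replicate 1), and median centring turned JAG2 to -0.060. Between passages, NOTCH1 ran from -0.11 to 0.090 (without ePP-P9 replicate 1; 0.012 without ePP-P21 replicate 1), and DLL4 from -0.84 to 0.086 and HES1 from -0.35 to 0.20 (both without ePP-P21 replicate 1). Median centring moved the median of all genes from 0.13 to -0.075 and turned NOTCH2 to -0.075 and NOTCH3 to -0.065, and quantile normalization turned NOTCH3 to -0.060. In ePP-β, quantile normalization turned DLL1 to -0.20 and HEYL to -0.26. The causes were not tested. The stage counts of 4, 9 and 7 members were unchanged with a pseudocount of 0.1 and were 4, 9 and 6 with quantile normalization. Depth is unknown, which limits statements on genes near 1 TPM.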

Other observations

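Further genes of the pathway were read across the libraries, chosen after their values were seen. HES4, a HES-family gene, was at 355 TPM in PP2 and 259 TPM in SC-β, at 51.2 to 105 TPM in the ePP libraries, and reached 224 and 124 TPM with DMSO against 411 and 158 TPM with I-BET151. HES6 was at 98.3 to 118 TPM in the ePP libraries, and reached 65.9 and 11.2 TPM with DMSO against 404 and 54.3 TPM with I-BET151, 6.13 and 4.85 times as high in the same-numbered pairs, while the ranges of the groups overlapped. NRARP, a feedback inhibitor of the pathway, had 23.7 and 21.4 TPM with DMSO against 39.1 and 38.7 TPM with I-BET151. The HES4 groups overlapped too. In the comparison as reported, HES4, HES6 and NRARP were not called (limma adjusted p = 0.681, 0.43 and 0.324). With the replicate block, HES6 was called (limma adjusted p = 0.00473), and HES4 and NRARP were not. HES2, another HES-family gene, went the other way. With I-BET151 it was 0.229 and 0.0238 times as high in the same-numbered pairs. On the log2(TPM + 1) scale the differences were -1.43 and -1.99, so the second ratio rests on a very low I-BET151 value. HES2 was not called in the comparison as reported (log2 fold change -1.71, limma adjusted p = 0.157). It was called with the replicate block (limma adjusted p = 0.0184).

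RBPJ, the DNA-binding partner of all Notch receptors, had 25.1 and 28.4 TPM with DMSO against 5.16 and 4.08 TPM with I-BET151, the opposite direction to HES1 and HEY1. In ePP-P9 it was at 34.5 and 10.8 TPM and in ePP-P21 at 42.2 and 40.4 TPM, in cells that were also kept with I-BET151. The ePP groups carry a different batch number from the DMSO and I-BET151 groups. Their difference cannot be told apart from a batch effect and was not tested. RBPJ has processed pseudogenes, and the 4 listed ones summed to 0.188 TPM or less in every library. RBPJ was not called with I-BET151 in the comparison as reported (log2 fold change -2.31, limma adjusted p = 0.07). It was called with the replicate block (limma adjusted p = 0.00698).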
